A study of Mus musculus with 6 samples.

Results

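The 10 genes described here encode the pore-forming alpha1 subunits of voltage-gated calcium channels, in dorsal root ganglia of Ash1l+/- mice and of wild-type littermates. They were chosen by gene symbol, as the Cacna1 genes from Cacna1a to Cacna1i and Cacna1s, and all 10 are among the 54532 genes of the count table. RNA was sequenced from whole ganglia, which hold the cell bodies of sensory neurons together with glia and vessels. There are 3 libraries labelled Ash1l+/-, in which 1 copy of the gene for a histone H3 lysine 36 methyltransferase is altered, and 3 labelled WT. The labels give no age, sex or allele structure, and do not say whether a library is 1 animal or a pool, so p-values measure the spread between these libraries, which may be partly technical. Total counts were 17209294 to 20545722 per library.

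An alpha1 subunit is a single long protein with 4 repeated domains that together form the pore and sense the membrane voltage. Channels of the Cav1 subfamily (Cacna1c, Cacna1d, Cacna1f and Cacna1s) are the L-type channels, which open on strong depolarization and couple calcium entry to contraction, hormone release and gene expression. Channels of the Cav2 subfamily (P/Q-type Cacna1a, N-type Cacna1b and R-type Cacna1e) drive transmitter release, and the N-type channel on the spinal endings of sensory neurons is a target of analgesic drugs. Channels of the Cav3 subfamily (Cacna1g, Cacna1h and Cacna1i) are the T-type channels, which open near the resting potential, and Cacna1h is the T-type gene best known from sensory neurons, where it is prominent in low-threshold mechanoreceptors.

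T-type genes can be told apart from the Cav1 and Cav2 genes in their coding sequence at the selectivity filter, the acidic residue that each of the 4 domains places in the pore. The sequences below show the filter of domain IV, with the filter codon in capitals and 4 codons before and after it in lower case, 5′ to 3′, from the longest coding transcript of each gene in GENCODE M21 (GRCm38).

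Cacna1a (chr8:84611599-84611625, plus strand, exon 35): agcgccacaggaGAAgcgtggcacaac

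Cacna1b (chr2:24635213-24635239, minus strand, exon 36): agtgccactgggGAGgcctggcatgag

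Cacna1c (chr6:118614050-118614076, minus strand, exon 36): tgtgccaccggaGAGgcctggcaggac

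Cacna1d (chr14:30075944-30075970, minus strand, exon 36): tgtgcaacagggGAAgcctggcaggag

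Cacna1e (chr1:154425975-154426001, minus strand, exon 37): agtgccacggggGAGgcttggcaggag

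Cacna1f (chrX:7629416-7629442, plus strand, exon 36): tgtgccactggtGAGgcctggcaagag

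Cacna1g (chr11:94416415-94416441, minus strand, exon 32): gtctccactggtGACaactggaatggt

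Cacna1h (chr17:25377771-25377797, minus strand, exon 31): gtgtccactgggGACaactggaatggg

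Cacna1i (chr15:80388485-80388511, plus strand, exon 31): gtctccacaggcGATaactggaatggg

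Cacna1s (chr1:136107018-136107044, plus strand, exon 33): tgtgccacagggGAAgcctggcaagag

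The filter codon of domain IV encodes glutamate in the 4 Cav1 and 3 Cav2 genes and aspartate in the 3 Cav3 genes. Domain III showed the same division, and in domains I and II all 10 genes have a codon for glutamate. Outside such conserved stretches the transcripts differ: the longest exact run shared by the longest coding transcripts of any pair of the 10 genes was 68 bases, between Cacna1g and Cacna1i, followed by 50 bases between Cacna1h and Cacna1i and 43 between Cacna1c and Cacna1d.

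WT replicate 2 stood apart from the other libraries before any gene was considered. Its log2 values correlated across genes with those of the other libraries at 0.846 to 0.877, while the other 5 correlated with each other at 0.981 or more. The tests of the alpha1 genes between genotypes are therefore given with and without it. Ash1l transcript stood at 66.5, 66.5 and 68.9 CPM under the Ash1l+/- label and at 60.9, 30.9 and 54.4 CPM under the WT label. It was not lower in the former, so the direction of each difference rests on the labels. CPM are counts relative to the TMM-scaled library total, and RPKM are CPM per kilobase of all annotated exons of the gene. Levels of different genes are compared in RPKM, which depend on how many exon bases are annotated for each gene.

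Transcripts of Cav2 channels were the most abundant of the family, at 65.2 to 75.5% of the summed alpha1 RPKM in each of the 6 libraries. Cacna1b, the N-type gene, was the highest single gene in 5 of 6 libraries. It stood at 15.1, 8.06 and 14.4 RPKM in WT replicates 1, 2 and 3 and at 14.8, 16 and 14.7 RPKM in Ash1l+/- replicates 1, 2 and 3. Its mean of 13.8 RPKM lay above 74.2% of the 14734 genes with a mean of at least 1 CPM. Cacna1a, the P/Q-type gene, followed at 10.4, 8.38 and 9.19 RPKM in WT and 10.7, 10.6 and 9.16 RPKM in Ash1l+/-, and in WT replicate 2 it lay slightly above Cacna1b. Cacna1e, the R-type gene, was far lower, at 0.544, 0.255 and 0.635 RPKM in WT and 0.671, 0.738 and 0.721 RPKM in Ash1l+/-.

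Among T-type genes, Cacna1h was the highest in 5 of 6 libraries. It stood at 7.49, 1.13 and 5.45 RPKM in WT replicates 1, 2 and 3 and at 5.20, 5.05 and 4.99 RPKM in the Ash1l+/- libraries. Its 3 Ash1l+/- values lay close together, whereas the 3 WT values spread widely on both sides of them. Cacna1i was at 1.94, 2.23 and 1.89 RPKM in WT and 1.19, 1.59 and 1.66 RPKM in Ash1l+/-, and in WT replicate 2 it exceeded Cacna1h. Cacna1g, the T-type gene prominent in the thalamus, was near the limit of detection with 14 to 37 reads per library, or 0.0769 to 0.167 RPKM.

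Of the L-type genes, Cacna1c, which carries the calcium current of heart and smooth muscle and is also made by neurons, was the highest in all 6 libraries. It stood at 3.71, 1.78 and 3.74 RPKM in WT and 4.44, 4.76 and 3.99 RPKM in Ash1l+/-. Cacna1d, whose channels open at more negative voltages and serve inner hair cells and the sinus node, was at 0.579, 0.0474 and 0.571 RPKM in WT and 0.780, 0.778 and 0.657 RPKM in Ash1l+/-. Cacna1f, the photoreceptor gene, and Cacna1s, the voltage sensor of skeletal muscle, were barely detected. Cacna1f had 4, 11 and 2 reads in WT replicates 1, 2 and 3 and 3, 0 and 1 reads in the Ash1l+/- replicates. Cacna1s had 4, 0 and 2 reads in WT and 3, 2 and 0 reads in Ash1l+/-. A count of 0 allows up to 3 reads, which is 0.137 to 0.224 CPM depending on the library and covers counting error only.

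**Figure D1:**
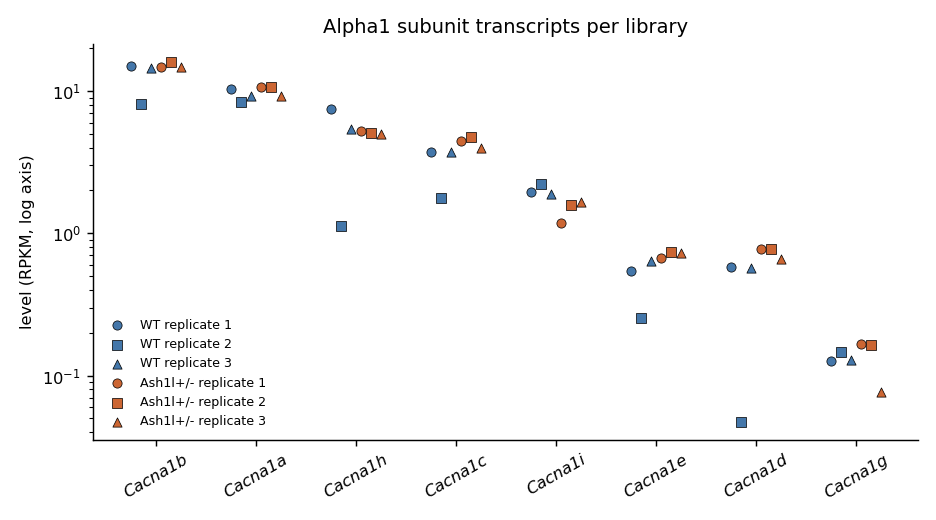
Level of the 8 alpha1 genes with more than a few reads, in RPKM on a log axis, with 1 symbol per library (blue WT, orange Ash1l+/-, shape by replicate number). Cacna1b and Cacna1a lead the order, and WT replicate 2 (blue square) lies well below the other libraries for Cacna1d and Cacna1h.

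Ordered by mean level over 6 libraries, the genes ran Cacna1b, Cacna1a, Cacna1h, Cacna1c, Cacna1i, Cacna1e, Cacna1d, Cacna1g, Cacna1f and Cacna1s. Over all 6 libraries, neighbours with ranges that did not overlap were Cacna1a and Cacna1h, and Cacna1i and Cacna1e. Without WT replicate 2, ranges overlapped only between Cacna1e and Cacna1d and between Cacna1f and Cacna1s, and within these pairs the order by mean turned.

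The library that stood apart differed from gene to gene within the family. Relative to the mean CPM of WT replicates 1 and 3, WT replicate 2 was at 0.0823 for Cacna1d, 0.175 for Cacna1h, 0.432 for Cacna1e, 0.479 for Cacna1c and 0.548 for Cacna1b. It was at 0.856 for Cacna1a and at 1.16 for both Cacna1g and Cacna1i. Cacna1d had 8 reads there, against 139 to 215 in the other 5 libraries. Chdh, a choline dehydrogenase gene on the opposite strand that shares 589 exonic bases with Cacna1d, had 2 reads there against 164 to 293 in the other libraries. Summed CPM of 11 sensory neuron markers was 25353 in WT replicate 2 and 11489 to 12156 in the others, and that excess lay mostly in Uchl1 (14227 CPM against 2258 to 2850). The median of the same markers was 0.35 lower in log2(CPM + 1) than in WT replicates 1 and 3. Summed CPM of 10 skeletal muscle markers was 32.1 in WT replicate 2 and 1.95 to 3.73 elsewhere, while Cacna1s had no read there. Marker sums were also higher in it for erythrocytes (628 CPM against 31.5 to 101), satellite glia (12141 against 3588 to 4332), endothelium (232 against 73.9 to 92.3) and macrophages (83.5 against 22.5 to 26.6). In bulk tissue, fewer cells of a type, less RNA per cell and a technical difference of this library cannot be told apart.

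**Figure D2:**
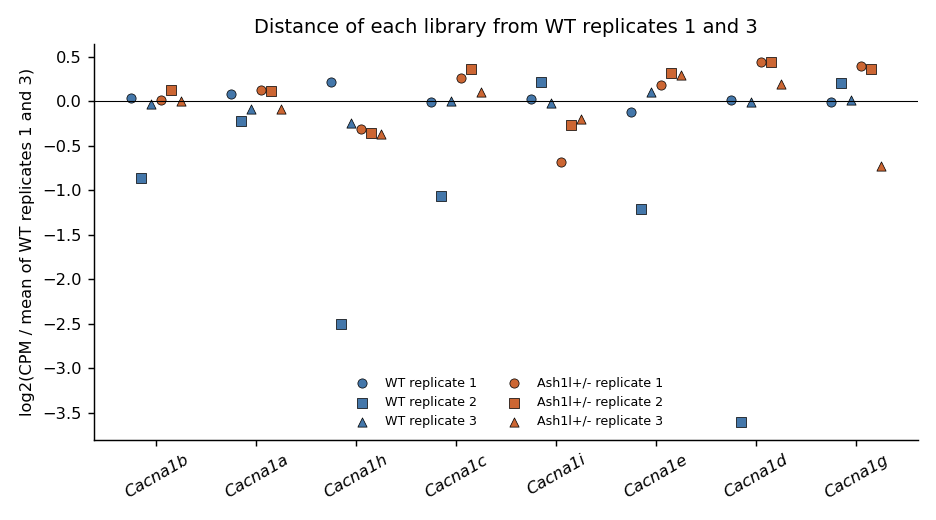
Log2 ratio of each library's CPM to the mean of WT replicates 1 and 3, for the 8 alpha1 genes with more than a few reads, with symbols by library. WT replicate 2 (blue square) lies lowest for 6 of the 8 genes, while the Ash1l+/- libraries lie above 0 for Cacna1c, Cacna1d and Cacna1e and below 0 for Cacna1h and Cacna1i.

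The comparison of genotypes asked whether calcium channel transcripts differ in ganglia with 1 altered Ash1l copy. With all 6 libraries, none of the 8 members that passed the filter on low counts differed by edgeR's quasi-likelihood test at an adjusted p of 0.05, where 0% of 16032 genes tested were called. Cacna1f and Cacna1s did not pass the filter. At an unadjusted p of 0.05, 0 members and 1702 genes passed, and DESeq2 called 0 members and 3 genes. limma-voom with weights for library quality, which gave WT replicate 2 a weight of 0.0274, called 4179 genes and 3 members: Cacna1c (log2 0.26, adjusted p = 0.0483), Cacna1e (0.32, 0.0468) and Cacna1h (-0.37, 0.0423). With the libraries' trends along gene length and GC content removed, the quasi-likelihood test again called 0 of 8 members and 0% of genes, with 0 members and 906 genes under an unadjusted p of 0.05.

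The intervals show what 6 libraries could resolve. The log2 difference of Cacna1d was 0.87 (95% interval -0.96 to 2.71, adjusted p = 0.511) and that of Cacna1h 0.11 (-1.36 to 1.59, adjusted p = 0.914). For Cacna1a and Cacna1b the intervals were narrower, -0.25 to 0.50 around 0.12 and -0.35 to 0.91 around 0.28. The smallest unadjusted p of the family belonged to Cacna1i, at 0.0579 with a log2 difference of -0.45 (SE 0.19, adjusted p = 0.385). All 3 of its Ash1l+/- values, 11.8, 15.7 and 16.4 CPM, lay below all 3 WT values, 19.2, 22 and 18.6 CPM. Cacna1c, Cacna1d and Cacna1e had every Ash1l+/- library above every WT library. Such separation was common: of all genes tested, 19.3% had the Ash1l+/- libraries above and 19.2% below, against 3 and 1 of the 8 members.

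Without WT replicate 2, 1 member rose and 1 fell among the 8 tested, against 9.39% of 16395 genes higher and 10.4% lower. Cacna1c was higher in the libraries labelled Ash1l+/-, at 94.1, 101 and 84.5 CPM against 78.6 and 79.2 in WT replicates 1 and 3, a 1.18-fold difference (log2 0.24, SE 0.08, adjusted p = 0.0468). The lowest Ash1l+/- library was above the highest of these WT libraries by less than the spread among the Ash1l+/- libraries. Cacna1h was lower, at 50.7, 49.3 and 48.8 CPM against 73.1 and 53.2, or 0.786 of the WT level (log2 -0.35, SE 0.10, adjusted p = 0.0247). The gap between the WT libraries was larger than that from WT replicate 3 to any Ash1l+/- library.

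Leaving out a further library ended each call in 3 of 5 cases. Cacna1h missed the threshold without WT replicate 1 (log2 -0.10, adjusted p = 0.67), without Ash1l+/- replicate 2 (-0.34, 0.0671) and without Ash1l+/- replicate 3 (-0.33, 0.0585). It passed without WT replicate 3 (-0.56, 0.000841) and without Ash1l+/- replicate 1 (-0.37, 0.0142), so the size of its difference varied most with the WT library left out. Cacna1c missed it without WT replicate 1 (0.23, 0.234), without WT replicate 3 (0.24, 0.14) and without Ash1l+/- replicate 2 (0.18, 0.221), and passed without Ash1l+/- replicate 1 (0.23, 0.0495) and without Ash1l+/- replicate 3 (0.31, 0.0235). With 1 WT library left, its spread was taken to equal that of the Ash1l+/- libraries.

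The other 6 tested members did not pass without WT replicate 2. Cacna1i was at 0.772 of the WT level (log2 -0.37, SE 0.14, adjusted p = 0.0579). Cacna1d and Cacna1e had log2 differences of 0.36 (SE 0.16, adjusted p = 0.111) and 0.27 (SE 0.12, adjusted p = 0.128). Both of the most abundant genes showed small differences with narrow intervals. For Cacna1b the log2 difference was 0.05 (95% interval -0.11 to 0.20, adjusted p = 0.711), with 147, 159 and 146 CPM in Ash1l+/- against 150 and 143 in WT. For Cacna1a it was 0.06 (-0.12 to 0.23, adjusted p = 0.695), with 122, 121 and 105 CPM against 118 and 105. The few reads of Cacna1g left a wide interval, -0.70 to 0.92 around 0.11. In these 5 libraries the groups did not overlap for Cacna1c, Cacna1d and Cacna1e (Ash1l+/- above, as for 23.9% of all genes tested) and for Cacna1h and Cacna1i (Ash1l+/- below, as for 25.3%).

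**Figure D3:**
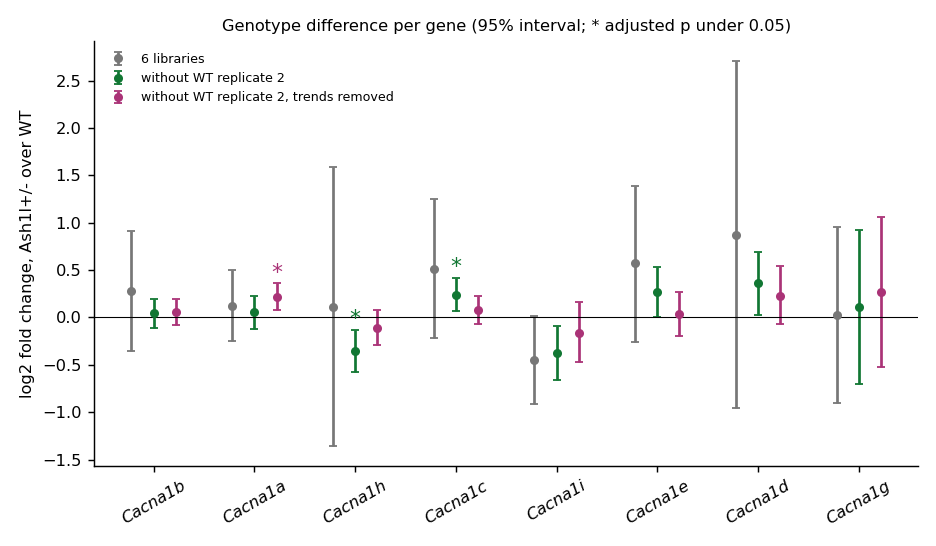
Log2 fold change of Ash1l+/- over WT for the 8 tested alpha1 genes, with 95% intervals, from all 6 libraries (grey), without WT replicate 2 (green) and without it after removal of length and GC trends (purple). Stars mark an adjusted p under 0.05: Cacna1c and Cacna1h in green and Cacna1a in purple, and no gene is starred under more than 1 of the 3.

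Without WT replicate 2, the median log2 difference of all genes ran from 0.25 for genes with at most 42% GC to -0.37 for genes above 60% GC. The 3 members with the largest positive differences had GC shares near the median of 49.7%: Cacna1e at 48.3%, Cacna1d at 49.6% and Cacna1c at 50.3%. Genes with 48 to 50% and 50 to 52% GC had median differences of 0.03 and -0.03. Exons of these 3 members span 25228, 12621 and 21191 bases, against a median of 4295. The other tested members were also longer than that median, from 9763 (Cacna1h) to 11418 bases (Cacna1a). Cacna1i and Cacna1h, the members with negative differences, had 59.3 and 60% GC. Cacna1g and Cacna1a, at 58.1 and 58.4%, had differences of 0.11 and 0.06, above the median of -0.29 for genes with 58 to 60% GC.

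With length and GC trends removed from the same 5 libraries, 1 member rose and 0 fell, against 2.63% of genes higher and 4.41% lower. Cacna1h then stood at -0.11 (adjusted p = 0.521), Cacna1c at 0.08 (0.546), Cacna1i at -0.16 (0.60), Cacna1e at 0.04 (0.871), Cacna1d at 0.23 (0.383), Cacna1b at 0.06 (0.653) and Cacna1g at 0.27 (0.736), and none of these passed. The member that rose was Cacna1a, at a log2 difference of 0.22 (SE 0.06, 1.16-fold) with an adjusted p of 0.0499, just under the threshold. Before the removal its groups overlapped. In the same fit 2 of 11 sensory neuron markers rose and 0 fell (Tubb3 0.28, adjusted p = 0.0151, and Prph 0.30, 0.0164), and 4 of 8 nociceptor markers rose and 0 fell (Trpv1 0.27, Mrgprd 0.28, P2rx3 0.29 and Gfra3 0.70), with list medians of 0.06 and 0.22. Their part in the difference of Cacna1a was not tested. Over these 3 analyses no member was called more than once.

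**Figure D4:**
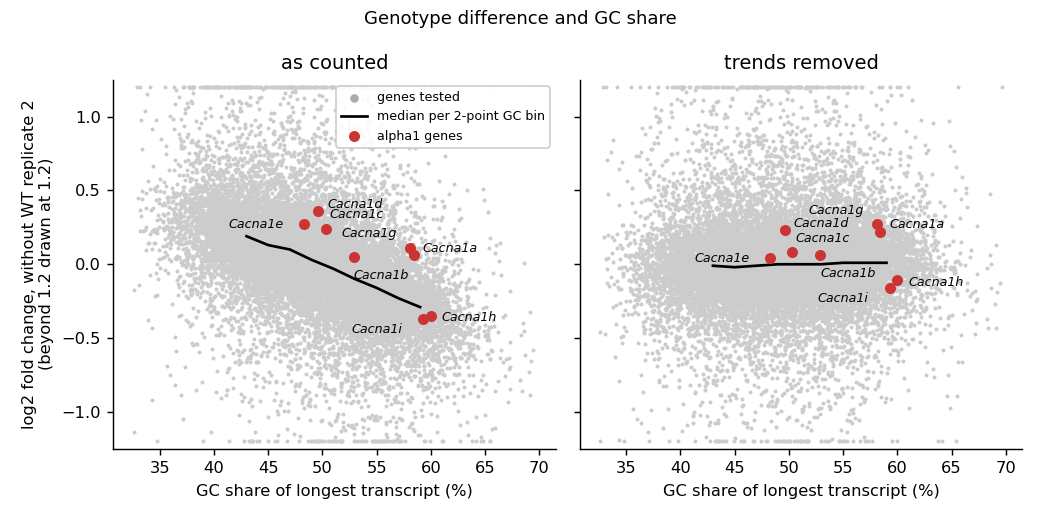
Log2 fold change without WT replicate 2 against the GC share of each gene's longest transcript, for all genes tested (grey), their median per GC bin (black line) and the 8 tested alpha1 genes (red), before (left) and after (right) removal of length and GC trends. The median falls from 0.19 at 42 to 44% GC to -0.29 at 58 to 60% GC on the left and lies within 0.02 of 0 on the right, where Cacna1h and Cacna1i move towards 0.

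Summed over subfamilies and per length, T-type genes made up 24, 15.9 and 20.7% of the family in WT and 17.3, 17.1 and 18.7% in Ash1l+/-. WT values lay on both sides of the Ash1l+/- range, but without WT replicate 2 both WT values lay above it. The L-type genes held 10.9, 8.69 and 12% in WT and 13.9, 14 and 12.9% in Ash1l+/-, with no overlap with or without WT replicate 2. Most of that was Cacna1c, at 9.3, 8.06 and 10.4% in WT and 11.7, 12 and 11.1% in Ash1l+/-. Such separation was common among single genes: 19.3% had Ash1l+/- above with 6 libraries, and 23.9% without WT replicate 2. Without WT replicate 2, 25.3% had Ash1l+/- below. Length and GC trends were not removed from the subfamily sums, and the shares depend on the annotated exon lengths. The summed level of all alpha1 genes was 36 to 39.9 RPKM in 5 libraries and 22.1 RPKM in WT replicate 2.

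Alpha1 subunits of the Cav1 and Cav2 subfamilies work with auxiliary beta and alpha2delta subunits, which bring the channel to the membrane, and the related gamma proteins. None of the 13 auxiliary genes tested passed with 6 libraries. Without WT replicate 2, 1 rose, 2 fell and 10 did not pass, where 9.39% of all genes tested were higher and 10.4% lower. Cacna2d1, an alpha2delta subunit bound by gabapentin, rose by 0.53 on the log2 scale (SE 0.10, adjusted p = 0.00108), at 221, 270 and 276 CPM against 160 and 195. Cacnb1 and Cacnb3, which encode beta subunits, had log2 differences of -0.42 and -0.30 (adjusted p = 0.00218 and 0.00691). With trends removed these 3 no longer passed (0.18, -0.10 and 0.08), and Cacng4 did (0.62, adjusted p = 0.0359). The median log2 difference of the auxiliary genes was -0.06 without WT replicate 2 and 0.08 with trends removed, that of the alpha1 members 0.08 and 0.07, and that of all genes tested 0 in both.

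Among 23 proteins that bind or tune calcium channels, 2 rose and 5 fell without WT replicate 2 (9.39 and 10.4% of all genes), and 0 rose and 3 fell with trends removed (2.63 and 4.41% of all genes). Rem2, a small GTPase that inhibits high-voltage-activated channels, was lower in both, at log2 -0.62 (adjusted p = 0.00191) and -0.39 (0.0269). The calcium-binding protein gene Cabp1 was lower in both as well, at -0.36 (0.0156) and -0.28 (0.0476). Camk2d, a calmodulin-dependent kinase, passed only with trends removed (-0.22, 0.049). Stac2, Ncs1 and the calmodulin gene Calm3 fell by 0.27, 0.25 and 0.22, and Akap6, a kinase anchor, and Rims2, which links channels to release sites, rose by 0.40 and 0.26. These 5 did not pass with trends removed. Of 12 genes for calcium store, store-operated and leak channels, 3 rose (Ryr3 0.48, Ryr2 0.39 and Itpr1 0.34) and 3 fell (Orai1 -0.44, Orai3 -0.37 and Orai2 -0.34) without WT replicate 2, beside the same 9.39 and 10.4% of all genes. None passed with trends removed, nor did any gene of either list with all 6 libraries.

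Markers of cells known to use these channels varied as follows without WT replicate 2, where 9.39% of all genes were higher and 10.4% lower. With all 6 libraries no marker passed. Of 7 low-threshold mechanoreceptor markers tested, beside Cacna1h, 1 rose (Ntrk3, log2 0.46) and 0 fell. The differences of 2 of the 7 were positive, and the median was -0.05. Summed CPM of the list was 760 and 834 in WT and 865 to 915 in Ash1l+/-. Ntrk3 alone was at 245 and 282 CPM in WT and at 364, 351 and 373 CPM in Ash1l+/-. Of 6 smooth muscle and pericyte markers, beside Cacna1c, 1 rose (Rgs5, log2 0.32) and 0 fell, and the median was 0. The list summed to 215 and 249 CPM in WT and 246 to 299 in Ash1l+/-. Rgs5 alone was at 174 and 215 CPM in WT and at 212, 261 and 256 CPM in Ash1l+/-. Myh11 and Acta2, the defining smooth muscle genes, had log2 differences of 0 and -0.17 and did not pass. With trends removed, Ntrk3 (0.13, adjusted p = 0.236) and Rgs5 (0.11, 0.398) did not pass. The mechanoreceptor list then had 0 members higher and 1 lower (Calb1, -0.38, 0.00937), and the smooth muscle and pericyte list 0 in either direction. Of 11 sensory neuron markers, 2 rose and 1 fell, with sums of 12043 and 12156 CPM in WT and 11489 to 11957 in Ash1l+/-. The part of these cells in the differences of Cacna1c and Cacna1h was not tested. Of the photoreceptor markers beside Cacna1f, Crx was at 0 in every library but WT replicate 2 (0.0747 CPM), and the list summed to 2.34 to 4.35 CPM over the 6 libraries.

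Some members share their place in the genome with other genes. Besides Chdh at Cacna1d, exons are shared with the antisense genes Gm16183 at Cacna1a (435 bases, 0 to 9 reads per library) and Gm37759 at Cacna1s (1309 bases, 0 to 3 reads), and with Tpsg1 at Cacna1h (158 bases, 0 to 4 reads). Strand is not recorded by the kit the labels name, so shared exons cannot be resolved by strand. Dcp1b lies across Cacna1c and Dcp1a across Cacna1d on the opposite strand, and neither shares exonic bases with it. The low counts of Cacna1s are uncertain for that reason, and counts of Cacna1d may be affected, since Chdh had counts of the same order. By the table's coordinates on GRCm38, Cacna1b (ENSMUSG00000004113) lies on chromosome 2 from 24603887 to 24763152, Cacna1c (ENSMUSG00000051331) on chromosome 6 from 118587240 to 119196418 and Cacna1h (ENSMUSG00000024112) on chromosome 17 from 25374285 to 25433783, all on the minus strand, while Cacna1a (ENSMUSG00000034656) occupies 84388440 to 84640246 of chromosome 8, plus strand. Gene lengths and coordinates of all 10 members equal those of GENCODE M21.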

How the data were processed

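The authors deposited raw read counts per gene, with gene names, positions and exon lengths, and FPKM of the same genes. The submitters' processing notes name the aligner HISAT2 2.0.5, the counter featureCounts 1.5.0-p3 and the build GRCm38, without their settings. The deposited FPKM follow the counts divided by an effective library size, 0.75 of the total for WT replicate 2 and 1.02 to 1.04 in the others, and served as an alternative scale only. Libraries were grouped by their titles. Genes kept by filterByExpr entered edgeR's quasi-likelihood test (R 4.3.3, edgeR 4.0.16, TMM factors, genotype as the only term, Benjamini-Hochberg over all genes tested, threshold 0.05). SEs are the log2 fold change over the square root of F, and 95% intervals use the test's degrees of freedom. Trends were removed with per-library loess curves (span 0.3) on GC share of the longest GENCODE M21 transcript and on gene length, entered as offsets. GC shares were found for 99.9% of genes tested. The 10 members are all named. Of each list of related genes, up to 4 per direction with the largest fold past the threshold without WT replicate 2 are named. Cacng4, Calm3, Camk2d, Tubb3, Prph, Trpv1, Mrgprd, P2rx3, Gfra3, Ntrk3, Calb1, Rgs5, Myh11, Acta2, Uchl1 and Crx were chosen after their values were seen. So were Apoe, Cldn5, C1qa, Cdh19, Cdh5 and Cd68. Members, lists and tests were chosen with earlier results of these data known. The table held 147 of the 148 symbols on the lists. The marker lists for nociceptors, satellite glia, Schwann cells, endothelium, fibroblasts, macrophages, erythrocytes and central nervous system had median log2 differences of 0.18, 0.34, -0.21, 0.06, -0.11, 0.01, -0.40 and -0.28 without WT replicate 2. No 2 libraries were alike within counting noise (lowest chi-square per degree of freedom 3.71). The fitting steps were tested on counts simulated at a single dispersion around common means. The simulated counts held no outlying library and no length or GC trend, so that test does not cover these features. Alternatives were RLE factors, no count filter, DESeq2 1.42.0, limma 3.58.1 (voom with quality weights, and log2(FPKM + 1) and log2(FPKM + 0.1)), a replicate block, trend removal and leaving out each library.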

Additional observations from a re-analysis of the deposited data

How the results depend on the processing

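With all 6 libraries, 10 of 14 alternatives left the count of genes called at 0. DESeq2 called 3 genes, limma on log2(FPKM + 0.1) called 1 and voom with quality weights called 4179, with 0, 0 and 3 alpha1 members among them. Leaving out 1 library gave 0 to 3252 genes and 0 to 2 members, and every call came without WT replicate 2. Cacna1h turned from 0.11 to -0.37 with quality weights and to -0.35 without WT replicate 2, in a range of -0.35 to 0.62 over the left-out libraries. Cacna1g, at 0.03, turned to -0.04 under the replicate block and to -0.01 on log2(FPKM + 0.1). It ranged from -0.14 to 0.31 over the left-out libraries, and was negative without WT replicate 1 (-0.0047), Ash1l+/- replicate 1 or Ash1l+/- replicate 2 (-0.12).

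Without WT replicate 2, removal of length and GC trends took the genes called from 3252 to 1154 and the members from 2 to 1. Leaving out a further library gave 796 to 4198 genes and 0 to 2 members. Cacna1i, short of the threshold at -0.37, passed with no count filter (-0.38, adjusted p = 0.0378) and without Ash1l+/- replicate 3 (-0.46, 0.0389). Cacna1a turned from 0.06 to -0.03 without WT replicate 3 (range -0.03 to 0.14), and Cacna1g from 0.11 to -0.08 without Ash1l+/- replicate 1 and to -0.03 without Ash1l+/- replicate 2 (range -0.08 to 0.38). With the replicate number as a block, 3982 genes and 2 members passed, Cacna1h (-0.33, 0.00336) and Cacna1i (-0.44, 0.00912), while Cacna1c missed (0.18, 0.0697) and Cacna1g stood at -0.08. Deviations of same-numbered libraries from their group means correlated at 0, -0.03 and 0.04 between the 2 groups. The WT mean included WT replicate 2, so these values cannot settle whether the numbers pair the samples. The cause of these changes was not tested. The order of levels was the same with deposited FPKM and with each library left out, an alternative added after seeing the data, except without WT replicate 2, where 6 of 10 members kept their rank (range 6 to 10). Depth limits Cacna1f, Cacna1s and Cacna1g, whose differences were not detectable with these counts.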
